A study of Mus musculus with 5 samples.

Results

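The myelin lipid enzymes are the products of 8 genes that build, hydroxylate or supply the lipids of the myelin sheath: Ugt8a, Gal3st1, Fa2h, Aspa, Cers2, Elovl1, Elovl5 and Scd2. They were chosen by name, with earlier results of these data known. All 8 were found, each as 1 row, among the 47729 genes of the counts table. Their expression was measured in the brains of 5 male mice of the inbred strain C57BL/6, all aged 30 months and all in 1 group, with 1 mRNA library per mouse. No treatment, genotype, other age or other tissue entered, so no contrast between groups was possible. The values describe how high each gene was, and how far it varied from mouse to mouse. The mice carry the numbers 7 to 11 of their labels, and the numbers give them no order.

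Myelin is a stack of oligodendrocyte membrane wrapped around axons, and it is rich in galactosylceramide and its sulfated form, sulfatide. Cers2 joins a sphingoid base to a very long chain fatty acid to make ceramide, Fa2h puts a hydroxyl group on the fatty acid, Ugt8a adds galactose, and Gal3st1 adds sulfate. Elovl1 lengthens saturated and monounsaturated fatty acids, Elovl5 lengthens polyunsaturated ones, Scd2 places a double bond in saturated fatty acids, and Aspa releases acetate from N-acetylaspartate, a molecule made by neurons. Some of these enzymes, such as Scd2 and Elovl5, are also made by other brain cells. In whole brain tissue, fewer cells of a type and less RNA per cell cannot be told apart.

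The fatty acid hydroxylase, the desaturase and the elongases are membrane enzymes known for histidine clusters at their active sites. In-frame runs of 1 histidine codon, 2 other codons and 2 histidine codons were searched for in the coding sequence of each longest coding transcript of GENCODE M21 (GRCm38). Fa2h and Scd2 held 2 such runs each, and Elovl1 and Elovl5 held 1 each. The coding sequences of Ugt8a, Gal3st1, Aspa and Cers2 held 0. The 6 runs are shown with 5 codons on either side because they are the feature that sets these 4 members apart in sequence; capitals mark the histidine codons.
Fa2h, from histidine codon 257: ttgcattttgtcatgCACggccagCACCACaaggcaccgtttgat
Fa2h, from histidine codon 336, chr8:111347935-111347979, minus strand: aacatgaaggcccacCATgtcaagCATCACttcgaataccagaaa
Elovl1, from histidine codon 141, chr4:118431439-118431483, plus strand: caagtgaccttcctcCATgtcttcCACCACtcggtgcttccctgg
Elovl5, from histidine codon 143, chr9:77976835-77976879, plus strand: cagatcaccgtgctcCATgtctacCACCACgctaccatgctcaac
Scd2, from histidine codon 156, chr19:44299621-44299665, plus strand: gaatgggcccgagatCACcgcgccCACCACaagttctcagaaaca
Scd2, from histidine codon 297: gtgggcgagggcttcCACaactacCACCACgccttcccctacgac
The first run of Fa2h and the second of Scd2 cross an exon boundary and so have no single range of coordinates. The elongase pair used the same histidine codons, and both had a gtc codon after the first.

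The libraries held between 15392006 and 18723390 counts, with 22686 to 24708 genes detected by 1 count or more. Of all genes, 16318 had a mean count of at least 10 and were tested; all 8 members were among them, with mean counts between 173 for Gal3st1 and 40254 for Scd2. Levels are given as CPM, counts scaled to a common library total, and between genes as RPKM, which also divides by the exon length. Together the 8 genes took 0.284% ± 0.0286 of all counts (SD, n = 5 mice), and Scd2 alone held 86.7% ± 1.36 of that. SDs and p-values here reflect differences among these 5 samples, part of which may be technical.

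Among the genes of galactolipid synthesis, Ugt8a and Gal3st1 were at opposite ends in mouse 11. Ugt8a, the galactosyltransferase at chr3:125865271-125938619 (minus strand, GRCm38), had 88.6, 87.8, 70.0, 69.1 and 47.5 CPM in mice 7, 8, 9, 10 and 11. Mice 7 and 8 were high and mouse 11 was low, by 1.87-fold from the highest to the lowest. Gal3st1, the sulfotransferase at chr11:3983636-3999326 (plus strand), had 12, 8.51, 8.23, 9.97 and 13.7 CPM in mice 7, 8, 9, 10 and 11. Here mouse 11 was the highest, mouse 7 came next, and the span was 1.66-fold. Gal3st1 had between 129 and 256 counts a library, so counting error alone gives a coefficient of variation of 7.61%, against a measured 22.2%. Fa2h, the hydroxylase at chr8:111345135-111393824 (minus strand), had 40.1, 46.6, 39.8, 53.1 and 54.6 CPM in mice 7, 8, 9, 10 and 11. Mice 10 and 11 were high and mice 7 and 9 low, with a span of 1.37-fold.

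The genes that make the fatty acid part and its ceramide had coefficients of variation between 8.48% and 16%. Cers2, at chr3:95314791-95323599 (plus strand), had 65.1, 72.2, 72.9, 78.5 and 81.3 CPM in mice 7, 8, 9, 10 and 11, a span of 1.25-fold and a coefficient of variation of 8.48%, the smallest of the 8. Elovl1, at chr4:118428093-118432953 (plus strand), had 15.2, 19.3, 16.7, 15.5 and 19.4 CPM in mice 7, 8, 9, 10 and 11. Mice 8 and 11 were the high ones, by 1.27-fold over the lowest. Elovl5, at chr9:77917364-77984519 (plus strand), had 102, 145, 136, 152 and 117 CPM in mice 7, 8, 9, 10 and 11. Mouse 7 was lowest and mouse 10 highest, 1.5-fold apart. Scd2, at chr19:44293674-44306864 (plus strand), had 2039, 2415, 2449, 2770 and 2649 CPM in mice 7, 8, 9, 10 and 11. It too was lowest in mouse 7, and the span was 1.36-fold.

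Aspa, the N-acetylaspartate deacetylase at chr11:73304992-73329596 (minus strand), had the widest span. Its level was 35.8, 24.8, 22.2, 17.3 and 14.2 CPM in mice 7, 8, 9, 10 and 11, a span of 2.53-fold with a coefficient of variation of 36.5%. Counting error alone gives 5.23%. As with Ugt8a, mouse 7 was the highest and mouse 11 the lowest.

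**Figure D1:**
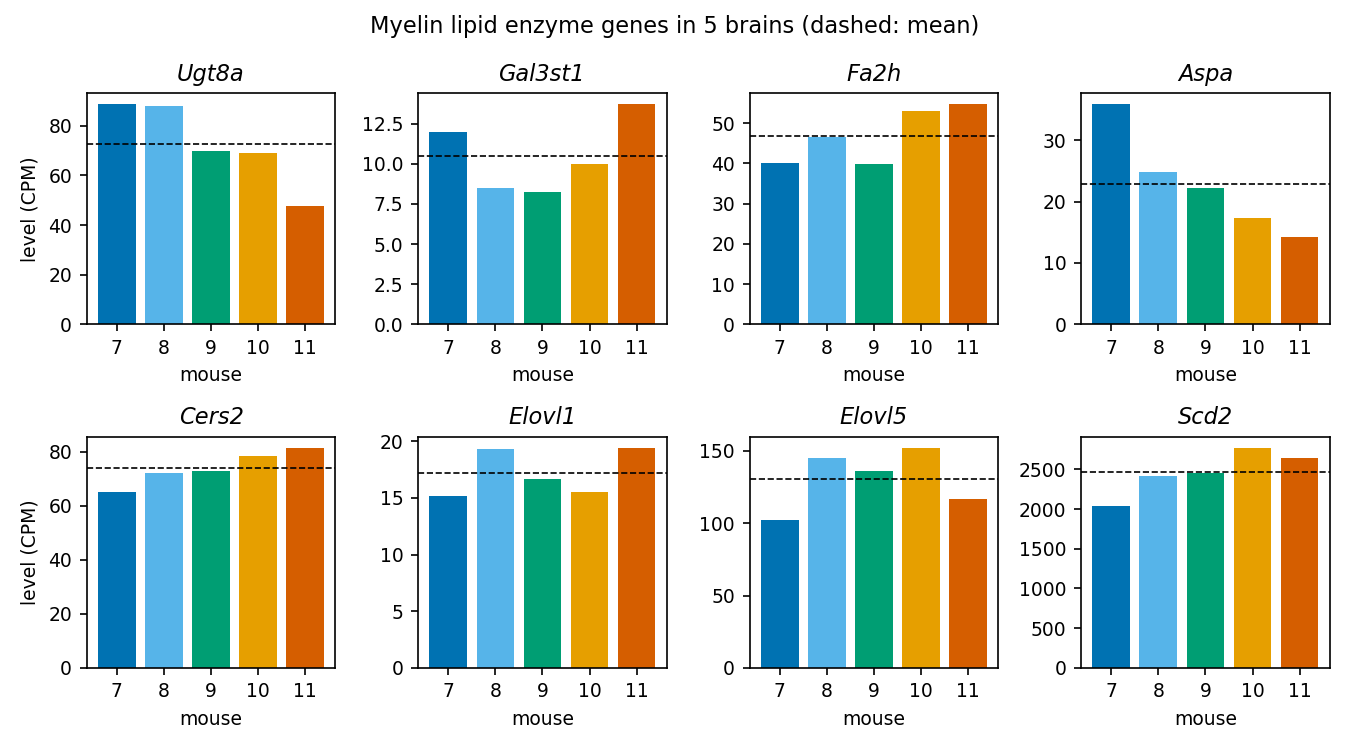
Level of each myelin lipid enzyme gene in CPM (y axis, from 0, a scale for each gene) in the 5 mice (x axis); bars are single libraries and the dashed line is the mean. Ugt8a and Aspa are highest in mouse 7 and lowest in mouse 11, while Cers2 and Scd2 are lowest in mouse 7.

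Some reads could belong to neighbours. The exons of Cers2 share 144 bases with the antisense gene 6330562C20Rik, which had between 2 and 12 counts a library, and 75 bases with Setdb1, on the opposite strand with between 790 and 984. Elovl1 shares 53 bases with Cdc20, also on the opposite strand, which had between 10 and 27 counts. Scd2 contains Mir5114, which had 0 counts in all 5 libraries. The sources used here do not say whether the counting used strand, and reads from the shared bases cannot be assigned with certainty. Scd1, Scd2, Scd3 and Scd4 are close paralogs, and how reads were split among them is uncertain as well.

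Per length, the order of the 8 genes ran from Scd2 to Aspa. Scd2 had 452 ± 51.2 RPKM (SD, n = 5 for this and the following values) and stood 30th by mean RPKM among the 16318 genes tested. Elovl5 had 37.0 ± 5.93 RPKM, Cers2 20.1 ± 1.71, Ugt8a 16 ± 3.72 and Fa2h 15.6 ± 2.32. Elovl1 had 6.32 ± 0.737 RPKM, Gal3st1 5.14 ± 1.14 and Aspa 3.83 ± 1.4. The ranges over mice did not overlap between Scd2 and Elovl5, between Elovl5 and Cers2, or between Fa2h and Elovl1. They overlapped between all other neighbours in the order: Cers2 was above Ugt8a in 4 of 5 mice, Ugt8a above Fa2h in 3, Elovl1 above Gal3st1 in 4, and Gal3st1 above Aspa in 4. The place of Aspa depended on the length used. The union of its annotated exons is 5954 bases, whereas its longest protein-coding transcript has 1746 bases. With the length of the longest coding transcript, a choice made after the values were seen, Aspa had 13.1 ± 4.77 RPKM and came 6th, above Elovl1 with 9.51 ± 1.11 and Gal3st1 with 5.58 ± 1.24; the 5 genes above them kept their order.

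**Figure D2:**
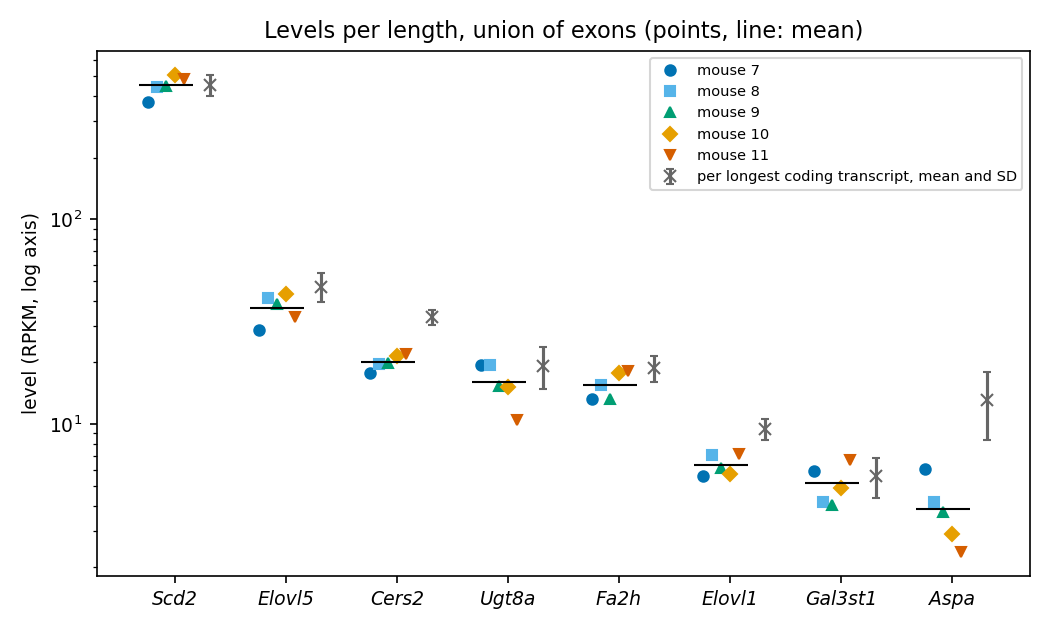
Level per length in RPKM (log axis) of the 8 genes in order of their mean; points are the 5 mice, lines their mean, and grey crosses the mean and SD when the longest coding transcript gives the length. Scd2 stands apart at 374 to 508 RPKM, and the cross of Aspa lies well above its points.

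Each member was also set against its own enzyme family. Of the summed RPKM of the 6 ceramide synthases, Cers2 held 33.9% ± 1.53 (SD, n = 5), the largest mean share. Cers5 held 24.0% ± 1.32, Cers1, which makes ceramide with a shorter chain, 21.8% ± 3.80, Cers6 13.1% ± 3.59 and Cers4 6.94% ± 1.06. Cers3 held 0.228%, from between 6 and 9 counts a library. The share of Cers2 lay between 32% and 35.9%. That of Cers1 was 27.9% in mouse 11 and between 17.5% and 21.5% in the other 4. That of Cers6 was 6.94% in mouse 11 and between 13.1% and 15.6% in the others. These shares are as measured. A trend on GC content and exon length was also removed from each library, as described below. Cers1 in mouse 11 then lay -0.22 log2 units from its mean over the mice, against 0.53 as measured. Cers6 there lay at -0.33, against -0.70 as measured.

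Of the summed RPKM of the 7 elongases, Elovl5 held 43.1% ± 2.39 and Elovl1 7.44% ± 1.12. Elovl4 held 25.7% ± 4.26, Elovl6, which extends saturated chains, 11.1% ± 4.47, Elovl2 7.28% ± 0.970 and Elovl7 5.39% ± 0.841. Elovl3 had between 0 and 2 counts a library. The share of Elovl6 was 18.6% in mouse 7 and between 6.64% and 10.7% in the other 4. Of the summed RPKM of the 4 desaturases, Scd2 held 84.1% ± 1.44, with a range from 82.3% to 85.6%, and Scd1 held 15.7% ± 1.39. Scd3 held 0.200%, from 47 to 72 counts a library, and Scd4 0.0136%, from 2 to 9 counts. With the longest coding transcript as length, Cers2 held 40.8% ± 1.66, Elovl5 46.1% ± 2.57 and Elovl1 9.47% ± 1.42 of their families, and Scd2 still 84.1% ± 1.44.

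**Figure D3:**
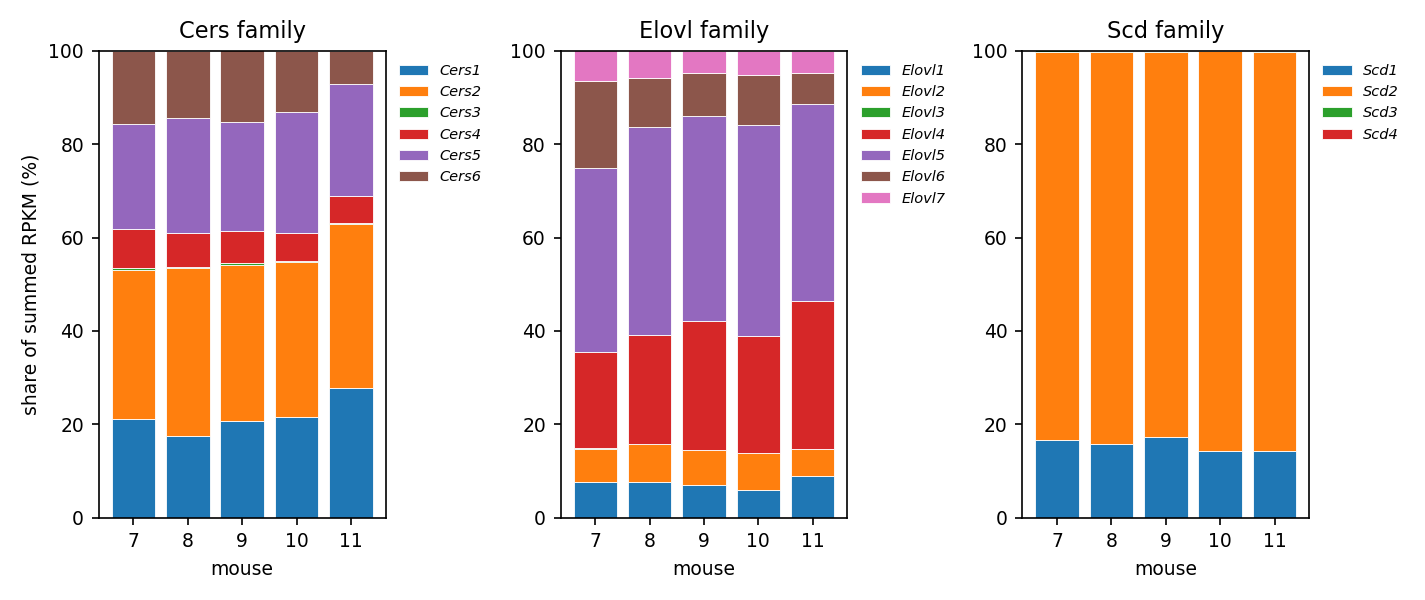
Share of each gene in the summed RPKM of its family (y axis, percent) in the 5 mice (x axis) for ceramide synthases, elongases and stearoyl-CoA desaturases. Scd2 fills 82.3% to 85.6% of its family in every mouse. The Cers2 band keeps its size, while those of Cers1 and Cers6 differ in mouse 11 as measured, with no trend removed.

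Pairs of consecutive or parallel steps were compared within each mouse as a log2 ratio, after a pseudocount of 1 was added to each RPKM. Ugt8a stood above Gal3st1 by 1.46 ± 0.53 (SD, n = 5) and Cers2 above Elovl1 by 1.53 ± 0.14. Scd2 stood above Scd1 by 2.41 ± 0.15. Elovl1 over Elovl5 was -2.37 ± 0.25 and Aspa over Ugt8a -1.83 ± 0.20, negative in all 5 mice. With the longest coding transcript as length, Aspa over Ugt8a averaged -0.56. Each of these 5 ratios had the same sign in 5 of 5 mice and gave p = 0.0625 when signs were flipped in an exact two-sided permutation test, the smallest p that 5 mice allow, and 0.0750 after Benjamini-Hochberg adjustment over the 6 pairs. No pair could therefore pass 0.05. Fa2h over Ugt8a averaged -0.02 ± 0.50, with -0.52, -0.30, -0.21, 0.20 and 0.74 in mice 7, 8, 9, 10 and 11 (exact permutation p = 0.9375). Its sign differed between mice, and the mean turned positive when mouse 7, 8 or 9 was left out.

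Variation between mice was tested in edgeR's quasi-likelihood framework, which asks whether a gene's dispersion exceeds that of genes of like expression. None of the 8 members was called at an adjusted p under 0.05 (0 of 8), and 0 of the 16318 genes tested were (0%). At an unadjusted p under 0.05, 0 of 8 members and 786 genes (4.82%) passed; DESeq2's dispersion outliers were 49 genes, with 0 members. Aspa came nearest in edgeR, with an adjusted p = 0.981, and Ugt8a was next with an adjusted p = 0.983. The SD of log2 CPM was 0.48 for Aspa, 0.34 for Gal3st1, 0.33 for Ugt8a, 0.23 for Fa2h and Elovl5, 0.19 for Elovl1 and Scd2, and 0.15 for Cers2. The median of the 8 was 0.23 and that of all genes tested 0.30; 3 of the 8 exceeded that of all genes. Without mouse 7 the SD was 0.13 for Elovl5 and 0.11 for Scd2, and without mouse 11 it was 0.19 for Ugt8a. Aspa passed an unadjusted p under 0.05 without mouse 11, as did 6.29% of the genes tested in that fit. The median of all genes tested takes in genes of every mean count from 10 up. Read against the 500 genes nearest in mean count, the SD of Aspa exceeded that of 91.2% and the SD of Ugt8a that of 78.8%. The share was 63.6% for Gal3st1, 59.6% for Elovl5 and 52.6% for Fa2h. For Scd2 it was 44.5%, for Elovl1 28.6% and for Cers2 26.4%.

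The members did not move together as 1 block. The mean over the 8 of the log2 CPM, less each gene's mean over the mice and scaled with TMM factors, was -0.01, 0.04, -0.06, 0.00 and 0.03 in mice 7, 8, 9, 10 and 11, a range of 0.10, or 0.05 without mouse 9. Beneath that flat mean, Ugt8a and Aspa peaked in mouse 7 and had their lowest values in mouse 11. Fa2h, Cers2, Elovl1, Elovl5 and Scd2 were lowest in mouse 7 on this scale. In mouse 11, 5 members were highest (Gal3st1, Fa2h, Cers2, Elovl1 and Scd2). With DESeq2 size factors or library size alone 4 were. With the GC and length trends removed, as described below, 3 were. Ugt8a was then highest in mouse 8, at 0.18, and lay at -0.07 in mouse 7. The 28 pairs of members were compared by the root mean square difference of the 5 deviations, with no trend removed. The closest were Cers2 and Scd2, at 0.06 log2 units, and the farthest were Fa2h and Aspa, at 0.63.

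The order of the members in mouse 11 followed the GC content of their longest transcripts, with 1 exchange. Ugt8a, with 38.0% GC, deviated by -0.52 log2 units in mouse 11, and Aspa, with 38.5%, by -0.55. Elovl5, with 44.8%, deviated by -0.08, Scd2, with 49.5%, by 0.17, Cers2, with 51.4%, by 0.20, and Elovl1, with 52.5%, by 0.24. Fa2h, with 55.2%, deviated by 0.29, and Gal3st1, with 59.5%, by 0.47. The medians of all genes tested rose with GC class in mouse 11 too. Genes under 40% GC had a median deviation of -0.42 in mouse 11 and 0.43 in mouse 7, and genes at or above 55% had 0.49 in mouse 11 and -0.13 in mouse 7.

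After a trend on GC content and exon length was removed from each library, the spread was smaller for 7 of the 8 members. The SD of log2 CPM was then 0.11 for Ugt8a, against 0.33 as measured, and 0.22 for Aspa, against 0.48. It was 0.20 for Gal3st1, 0.13 for Fa2h, 0.09 for Cers2, 0.12 for Elovl1 and 0.18 for Scd2. For Elovl5 it was 0.29, larger than the 0.23 measured. The median of the members was 0.15 with trends removed and 0.23 as measured, and that of all genes tested 0.23 with trends removed and 0.30 as measured. The SD of the log2 ratio of CPM of Fa2h over Ugt8a was 0.12 with trends removed and 0.53 as measured, and that of Ugt8a over Gal3st1 0.27 and 0.59. For Aspa over Ugt8a it was 0.25 in both. For Cers2 over Elovl1 it was 0.15 with trends removed and 0.16 as measured, and for Elovl1 over Elovl5 0.28 and 0.27.

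Some departures remained. With trends removed, Elovl5 in mouse 7 was at -0.49 log2 units, and Scd2 there at -0.24. Gal3st1 was at 0.34 in mouse 7 and between -0.18 and 0.01 in the other 4. Aspa was at 0.31 in mouse 7 and at -0.28 in mouse 10, while Ugt8a lay between -0.11 and 0.18. The low Ugt8a of mouse 11, at -0.52 as measured, was at -0.11. None of these values carries a test.

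**Figure D4:**
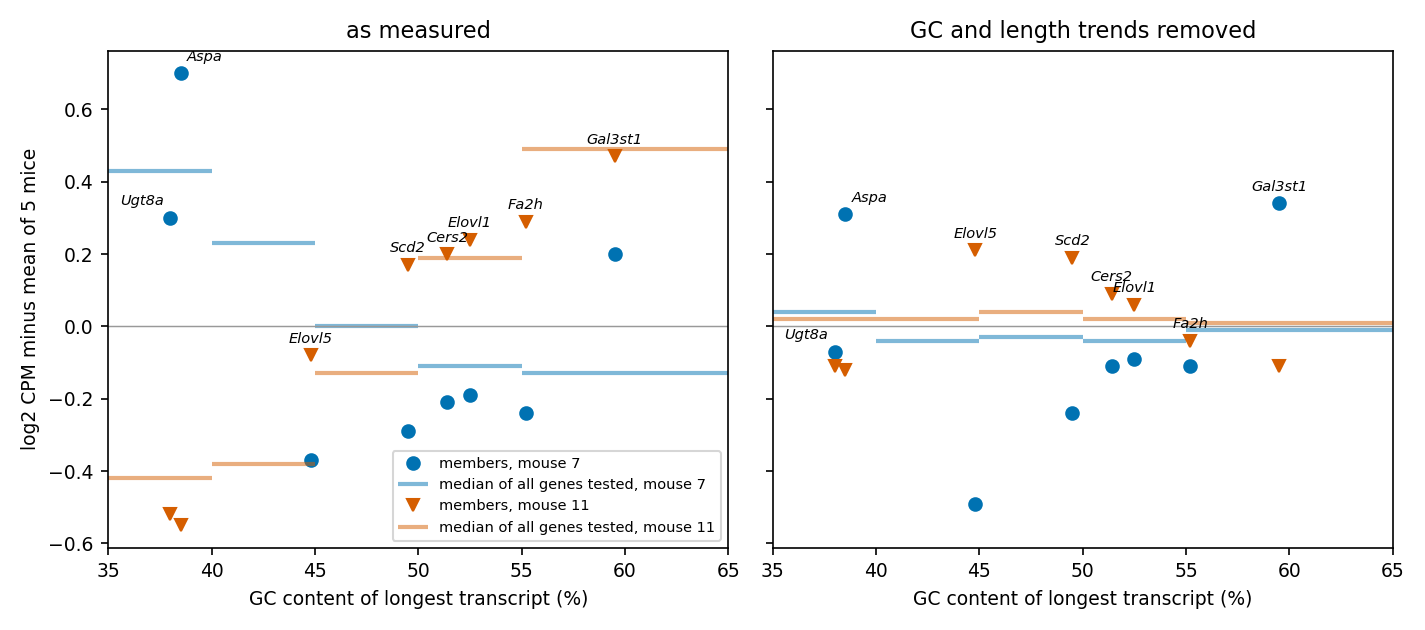
Deviation of each member from its mean over the 5 mice (y axis, log2 units) against the GC content of its longest transcript (x axis, percent) in mice 7 and 11, as measured (left) and with the GC and length trends of each library removed (right); horizontal bars are medians of all genes tested per GC class. The 2 members under 40% GC lie high in mouse 7 and low in mouse 11 on the left, with Ugt8a near 0 on the right.

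Ugt8a and Aspa, the 2 members whose log2 CPM as measured was lower in mouse 11 than in mouse 7, were compared in the 250 bases before their start sites (RefSeq, GRCm38.p6). Entries matched for 6 of the 8 members, all but Fa2h and Scd2. The strands searched were both, for the letters TCACNCCAC (an SREBP site), CTGGNAC (a MYRF motif), ACAATG and ACAAAG (SOX motifs), CCAAT and GGGCGG (an SP1 box), a set chosen with results known. The matches are shown in capitals.
Ugt8a, chr3:125938653-125938902, minus strand: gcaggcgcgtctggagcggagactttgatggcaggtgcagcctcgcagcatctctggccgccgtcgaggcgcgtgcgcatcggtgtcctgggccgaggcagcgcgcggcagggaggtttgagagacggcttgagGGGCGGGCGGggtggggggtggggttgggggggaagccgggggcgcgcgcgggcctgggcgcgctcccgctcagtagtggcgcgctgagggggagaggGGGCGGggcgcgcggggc
Aspa, chr11:73324638-73324887, minus strand: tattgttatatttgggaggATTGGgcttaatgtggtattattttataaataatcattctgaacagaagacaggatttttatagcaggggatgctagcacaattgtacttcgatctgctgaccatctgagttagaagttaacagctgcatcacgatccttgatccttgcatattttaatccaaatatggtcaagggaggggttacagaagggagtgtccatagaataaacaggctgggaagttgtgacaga
The Ugt8a window has 76.8% GC, above 97.2% of the 32851 mouse promoter windows, and holds 3 SP1 boxes, of which 2 overlap. The Aspa window has 38.8% GC, above 9.70% of them, and holds 1 CCAAT box, on the other strand. It lies inside the Aspa gene range given above, before a start site within the gene, whereas the Ugt8a window lies outside its gene range. The 2 windows thus lie near opposite ends of promoter GC, while the transcripts have 38.0% and 38.5% GC. Over all windows, the SP1 box was in 32.7%, the CCAAT box in 33.8%, the first SOX motif in 10.7% and the second in 16.5%, the MYRF motif in 16.1% and the SREBP site in 1.05%. In the 10 windows of the 6 members, the CCAAT box was in 6 and the SP1 box in 4. Of the 6 with a CCAAT box, 2 are overlapping windows of Gal3st1 that hold the same box. The first SOX motif was in 2, both of Gal3st1 and overlapping, and the second SOX motif, the MYRF motif and the SREBP site were in 0. Such matches describe letters only.

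The genes whose pattern over the 5 mice was nearest to that of each member were found among 11186 other genes whose mean count reached 100, by the root mean square difference of log2 deviations. The nearest to Ugt8a was Clcn5 (0.040), to Gal3st1 Rfx1 (0.038), to Fa2h Dennd2a (0.006) and to Aspa Armcx4 (0.043). The nearest to Cers2 was Nuak1 (0.014), to Elovl1 Clybl (0.021), to Elovl5 Reep3 (0.023) and to Scd2 Cdk2ap1 (0.018). Nearness over 5 mice is common: 1176 genes lay within 0.1 log2 units of Cers2 and 42 within 0.1 of Aspa, the fewest. The mean of the 8 was matched most closely by Aagab (0.014), Emc8, Mrpl58, Cables2 and Asb13, all within 0.022.

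The surrounding pathways were described with lists of genes that leave the members out. Of the 125 list genes tested, 0 were called in edgeR (adjusted p under 0.05) and 9 had an unadjusted p under 0.05, as did 4.82% of all genes tested. In sphingoid base and ceramide synthesis, 0 of 11 genes tested were called; Degs1, which makes the double bond of ceramide, had the highest level at 47.7 ± 5.84 RPKM (SD, n = 5) and Sptlc3 the lowest at 0.0803 ± 0.0400. Among the other sphingolipid head group genes (0 of 6 called), St3gal5, which starts ganglioside synthesis, had 48.2 ± 3.77 RPKM and the sphingomyelin synthase Sgms2 1.55 ± 0.265. Among genes of galactolipid breakdown (0 of 7), Psap, the precursor of the saposins, had 646 ± 64.1 RPKM and Sumf1, which activates sulfatases, 6.45 ± 0.340. The median SD of log2 CPM in these 3 lists was 0.19, 0.17 and 0.17, and 0.30 over all genes tested. With trends removed it was 0.23, 0.28 and 0.09, and 0.23 over all genes tested.

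Among the fatty acid lists, 0 of 10 elongation genes, 0 of 6 desaturases and 0 of 11 genes of fatty acid synthesis and its regulators were called. Tecr, the reductase that closes each elongation cycle, had 287 ± 62.5 RPKM, the desaturase Fads1 88.5 ± 9.48, and Qk, an RNA-binding protein of oligodendrocytes and astrocytes, 62.2 ± 5.78. Mlxipl, a carbohydrate-responsive transcription factor, had 0.527 ± 0.0784 RPKM. In N-acetylaspartate metabolism (0 of 7), Nat8l, which makes N-acetylaspartate, had 59.8 ± 12.4 RPKM and Naalad2 0.690 ± 0.206. Among genes of 2-hydroxy and very long chain fatty acid breakdown (0 of 8), Hacl1, which cleaves 2-hydroxy fatty acids, had 1.56 ± 0.509 RPKM, the lowest of the list. In plasmalogen synthesis (0 of 7), Gnpat had 21.2 ± 1.80 RPKM and Far2 3.55 ± 0.953. The median SD of log2 CPM was 0.38 in plasmalogen synthesis, 0.36 in N-acetylaspartate metabolism and 0.31 in elongation, above the 0.30 of all genes. It was 0.27 in fatty acid synthesis, 0.21 in desaturases and 0.16 in 2-hydroxy and very long chain fatty acid breakdown. With trends removed it was 0.24 in plasmalogen synthesis, 0.20 in N-acetylaspartate metabolism and 0.25 in elongation, against 0.23 for all genes. It was then 0.16 in fatty acid synthesis, 0.16 in desaturases and 0.13 in 2-hydroxy and very long chain fatty acid breakdown.

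The 9 list genes with an unadjusted p under 0.05 were named after their values were seen. Ermn, Aqp4, Slco1a4, Folh1, Abcd2 and Far1 peaked in mouse 7 and had their lowest values in mouse 11, as Ugt8a and Aspa were, and C1qa, Cldn5 and Nr1h2 were highest in mouse 11. Abcd2, a peroxisomal transporter of fatty acids, deviated by 0.95 log2 units in mouse 7 and -0.72 in mouse 11, and by 0.63 and -0.31 with trends removed. Far1, which makes fatty alcohols for plasmalogens, deviated by 0.96 and -0.66, and by 0.52 and -0.21 with trends removed. With trends removed, mouse 7 was still the highest for all 6 of the first group. C1qa was then at 0.12 in mouse 11, against 0.72 as measured, and was highest in mouse 10 at 0.31. Nr1h2 was at 0.20 in mouse 11, against 0.84 as measured, and Cldn5 at 0.50, against 1.14.

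Markers of cell types were read beside the members. The 12 mature oligodendrocyte markers had mean deviations of 0.03, 0.19, -0.30, 0.10 and -0.01 in mice 7, 8, 9, 10 and 11, with a summed level between 4757 and 6557 CPM. With trends removed the deviations were 0.03, 0.19, -0.25, 0.12 and -0.09, so mouse 8 was highest and mouse 9 lowest both ways. The mean of the 8 members with trends removed was -0.06, 0.02, -0.02, 0.03 and 0.02. Mbp, the myelin basic protein, had 346 ± 73.2 RPKM, the highest of the list. The part of oligodendrocyte content in the members' levels was not tested. The median SD of log2 CPM of the oligodendrocyte markers was 0.32, and 0.27 with trends removed. Of the 12 oligodendrocyte markers, 0 were called, and none was at 0 counts in all libraries.

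The median SD of log2 CPM was 0.34 for precursor, 0.33 for microglia and for endothelium, 0.20 for astrocyte and 0.19 for neuron markers. With trends removed it was 0.17 for precursor, 0.20 for microglia, 0.26 for endothelium, 0.22 for astrocyte and 0.14 for neuron markers. These lists had no called gene either: 0 of 8 precursor, 0 of 8 neuron, 0 of 8 astrocyte, 0 of 8 microglia and 0 of 6 endothelium markers. The summed level of neuron markers lay between 6220 and 7043 CPM, of astrocyte markers between 5427 and 7249, of microglia markers between 439 and 525, of endothelium markers between 236 and 274, and of oligodendrocyte precursor markers between 386 and 526. In the precursor list, Bcas1 had 52.6 ± 11.3 RPKM and Enpp6 1.45 ± 0.580. Slc17a7, the vesicular glutamate transporter of neurons, had between 271 and 519.8 RPKM and the astrocyte transporter Slc1a2 between 213 and 349. The neuronal splicing factor Rbfox3 had 29.5 ± 8.93 RPKM, and the astrocyte gene Aldh1l1 had 14 ± 1.7. In microglia markers Ctss had 69.1 ± 6.68 RPKM and Aif1 2.45 ± 0.814, and in endothelium markers Itm2a had 19.9 ± 3.19 and Tek 3.29 ± 1.03. Schwann cells, which make the myelin of peripheral nerves, were looked for with 4 genes: Pmp2 had 0 counts in all 5 libraries. Pmp22, which other cells also express, had 18.3 ± 1.89 RPKM.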

How the data were processed

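The deposited files hold whole-number counts of each gene in 5 libraries, and RPKM values the authors made from them. The tools used were STAR 2.4.1d, featureCounts 1.4.6-p4 and CASAVA 1.7, on GRCm38, per the submitters' processing notes; the annotation release and strand setting are not given in the sources used here. Among 12729 genes checked, the deposited RPKM fitted a library's own total for 0 genes and totals rotated from gene to gene for 12729 (within 1%), and lay between 0.821 and 1.22 times values recomputed with the own total. RPKM was therefore recomputed from the counts with the gene lengths the deposited values imply. Symbols, coordinates and GC content came from GENCODE M21; genes without a symbol held 0.0469% of counts. The 5 libraries differed by more than sampling noise (chi-square of 7.02 or more per gene for every pair) and were kept apart. Pairs among mice 8, 9 and 10 had 7.02 to 9.56, and pairs of mouse 7 with these had 23.3 to 32.5. Pairs with mouse 11 had 42 to 101. Mice 7 and 11, where most members had their extremes, thus differed most from the rest over all genes compared.

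Variation was tested with edgeR 4.0.16 and limma 3.58.1 in R 4.3.3: an intercept, TMM scaling, genes whose mean count reached 10, trended dispersion, Benjamini-Hochberg adjustment and a threshold of 0.05. Common dispersion was run first and gave 0 called genes and 790 at an unadjusted p under 0.05; the trended fit, edgeR's default, replaced it after that was seen. DESeq2 1.42.0 gave dispersion outliers and size factors. Log2 CPM used a prior count of 1. Trends were fitted per library with splines of 5 degrees of freedom on GC content and log2 exon length. The test was tried on simulated data.

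The members and gene lists were chosen with earlier results of these data known. Of 132 list genes, 131 matched. Named are all members, their families, the genes with the highest and lowest mean RPKM of a list, any called, genes that overlap a member, and the nearest profiles; some genes that this takes are not reported here. Coding transcript lengths, GC classes, trend-removed ratios and lists, histidine codon runs and promoter motifs were chosen after the data were seen.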

Additional observations from a re-analysis of the deposited data

How the results depend on the processing

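The number of members called variable was 0 under all 12 other settings: DESeq2 size factors, library size alone, a mean count of at least 50, no filter, trends removed, common dispersion, DESeq2's outliers and each mouse left out. Without a filter 230 of 28335 genes were called, and DESeq2's outliers were 49 of 16318 genes. In every other setting 0 of all genes tested were called. The 0 for the members there sets them apart from no other gene. Aspa had an unadjusted p under 0.05 in edgeR without the filter, as did 6.77% of genes there, and without mouse 11, as did 6.29%. The range of the members' mean deviation, 0.10, was between 0.05 (without mouse 9) and 0.10 with 1 mouse left out, and between 0.08 and 0.13 under other scalings, another prior count and trends removed.

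With the longest coding transcript as length, the family share was 40.8% for Cers2, 9.47% for Elovl1 and 46.1% for Elovl5; the share of Scd2 moved by less than 1 SD in its 8 alternatives. The log2 ratio of Fa2h over Ugt8a, -0.02, was between -0.21 and 0.11 with 1 mouse left out, and positive without mouse 7 (0.11), 8 (0.05) or 9 (0.03). The other 5 ratios kept their sign throughout, but Aspa over Ugt8a, -1.83, was -0.56 with the coding transcript as length. The SD of log2 CPM moved by over 1.5 times in 9 of 72 cases, 6 of them on removing trends; without mouse 7 it was 0.13 for Elovl5 and 0.11 for Scd2, and without mouse 11 0.19 for Ugt8a. The mean RPKM moved by over 1 SD in 5 of 64, all with the coding transcript as length. The causes were not tested. No paired analysis was possible because all mice form 1 group. Counting error limits Gal3st1 most among the members.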
